A study of Physcomitrium patens with 8 samples.

Results

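In the moss Physcomitrium patens, 214 array probes from 183 loci had a lower signal in atg5 than in wild type (WT) after rehydration. This signal is relative to the other detected probes. The 214 probes differed less between the genotypes, within a set limit, before drying, on abscisic acid and in the dried state. They are 3.91% of the 5475 probes that were well above background in all 16 channels, out of 38181 gene probes of 32103 loci on the array. RNA of WT and of atg5, a knockout of autophagy related gene 5, was labelled with different dyes and hybridised together on 8 arrays, 2 per treatment, with the dyes exchanged between replicates. All colonies were 7-day-old protonemata, the filamentous stage, grown on a nutrient-sufficient medium under continuous light. Hydration colonies had no further treatment. ABA colonies spent 24 h on 50 µM abscisic acid, Dehydration colonies 24 h over silica gel, and Rehydration colonies a further 24 h on fresh medium after drying. The labels name 1 atg5 line, so any other difference of that line from WT is part of each comparison. They do not say whether colonies were given abscisic acid before drying.

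Autophagy encloses cell material in double-membraned vesicles and carries it to the vacuole, where it is broken down and its building blocks are reused. ATG5 is part of the conjugation machinery that attaches ATG8 to the membrane of these vesicles, and plants without it form none by this route. Abscisic acid is the hormone of water stress, and in this moss it makes protonemal cells tolerant of drying. On rewetting, cells that survive drying can repair damage and resume growth, neither of which was measured here.

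Members were chosen by the atg5/WT ratio, the log2 of the atg5 over the WT signal on the same array, minus the median of that ratio over the 5475 probes. The mean of the 2 arrays had to be at or under -0.8 in Rehydration and within 0.4 of 0 in each of the other treatments. The ratios below are therefore a description of what was selected and carry no test. Of the 5475 probes, 699 (12.8%) met the Rehydration limit, and 485 of these were left out because the ratio was 0.4 or more from 0 in another treatment. A further 579 probes met the ratio limits but were not well above background somewhere. Among those, 210 missed it only on Rehydration arrays, 79 of them only in the atg5 channel and the rest in the WT channel or in both. The rule thus passes over transcripts that were too dim after rehydration to be measured, in either genotype. The identifiers of the array are not paired with gene names or descriptions in the sources used here, so members are named by identifier and no role can be given for them.

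The median ratio of the members was -1.02 in Rehydration, 2.03-fold lower in atg5 relative to the median probe of the same array, with a range of -1.98 to -0.80. In Hydration, ABA and Dehydration the medians were -0.0465, -0.0609 and -0.101. Below 0 were 118 and 117 members on the Hydration arrays, 142 and 121 on ABA and 150 and 142 in Dehydration (replicate 1 first). All 3 of these mean ratios were within 0.2 of 0 in 58 members. On single arrays the Rehydration medians were -0.998 in replicate 1 and -1.13 in replicate 2. All 214 members were below 0 on both Rehydration arrays, 123 were at or under -0.8 on both, and 60 were at or under -1 on both. The replicates of a member lay a median of 0.358 apart in Rehydration, against 0.181 to 0.210 in the other treatments, and 12 members had Rehydration replicates over 1 apart. At the limit, Pp1s218_133V6.1 (-0.80) and Pp1s177_14V6.3 (-0.81) were just inside, and Pp1s147_10V6.1 (-0.799) and Pp1s145_100V6.1 (-0.798) just outside.

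**Figure D1:**
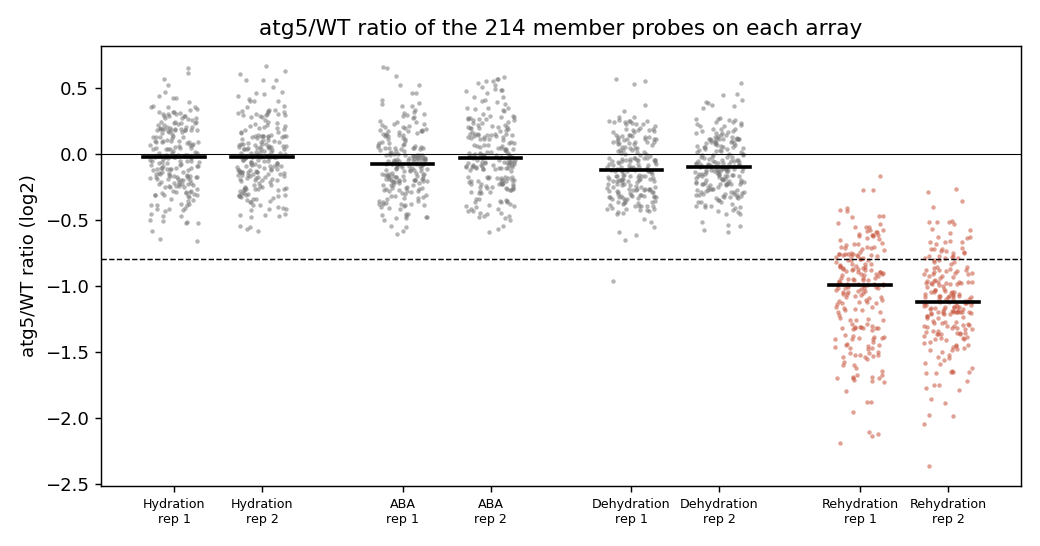
The atg5/WT log2 ratio (y axis) of the 214 member probes on each of the 8 arrays, with 1 point per probe, black bars at the medians and a dashed line at the limit of -0.8. The Rehydration medians lie at -0.998 and -1.13, while the medians of the other arrays lie between -0.128 and -0.0287.

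The size of the ratio depended on the signal used. The median pixel signal of the members above local background was 82.0 and 152 units in rehydrated WT (replicate 1 first) and 118 and 77.5 in rehydrated atg5. Before any scaling it was thus higher in atg5 than in WT on replicate 1, where the median of all 5475 probes was too, and by more. The Hydration signals were 557 and 927 for WT and 398 and 205 for atg5. Spots were thus several times dimmer on the Rehydration arrays, for the members and for all 5475 probes (medians 61.5 and 103 in WT, 159 and 98.5 in atg5). The part of this dimness in the ratios was not tested. With a normexp background correction (offset 50) and loess in place of the scanner software's processed signals, the median ratio of the members was -0.61, with 214 of 214 below 0 and 50 at or under -0.8. With an offset of 1, chosen after seeing the data, it was -0.89.

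To see which genotype changed, the level of each probe was taken in each channel as the log2 processed signal minus the channel's median over the 5475 probes. Such levels are relative to the other detected transcripts of the channel. Total RNA per cell was not measured, so a change in a cell's RNA content or in the share of a cell type cannot be told apart from a change per cell. From Dehydration to Rehydration the members' median change was 1.00 in WT and 0.11 in atg5. Against Hydration it was 0.84 in WT and -0.12 in atg5. In WT 147 members were at least 0.5 higher in Rehydration than in Dehydration and 12 at least 0.5 lower. In atg5 these numbers were 68 and 61. Over the 5475 probes 32.7% passed 0.5 upwards and 30.2% downwards in WT. For atg5 the shares were 26.7% upwards and 26.2% downwards, so the atg5 counts of the members lay near the background. The quartiles of the change over the 5475 probes were -0.66 and 0.75 in WT and -0.53 and 0.54 in atg5, a wider spread in WT, around medians of 0.0147 and -0.0113. The rule selects on the same Rehydration channels, so these changes are a description of the selected set.

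**Figure D2:**
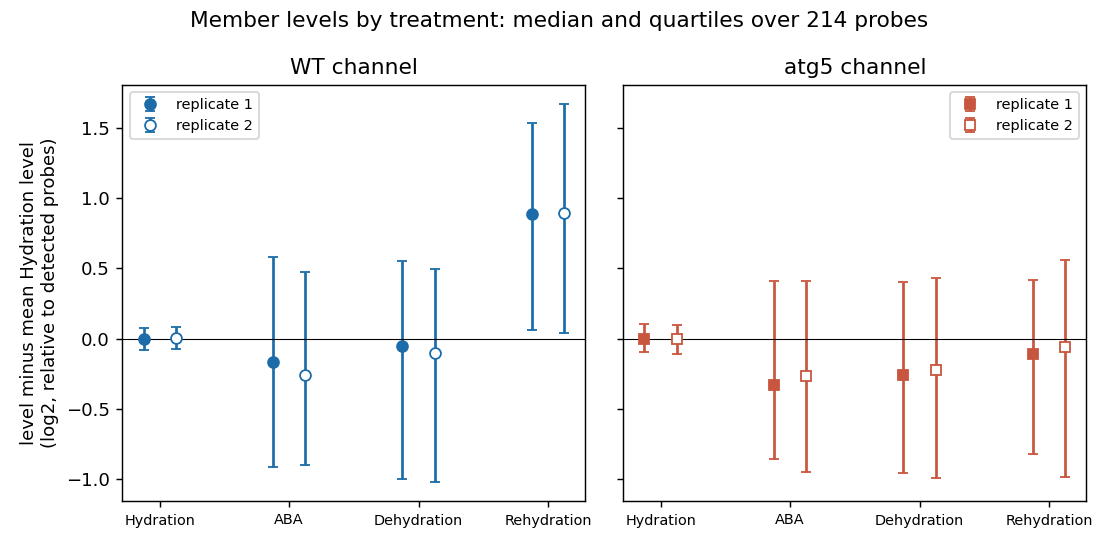
Change of the members' level from the mean Hydration level (log2, y axis) in the WT and atg5 channels for each treatment, as the median (points) and quartiles (bars) over 214 probes, with filled points for replicate 1 and open points for replicate 2. In Rehydration the WT medians lie above 0 and the atg5 medians close to 0 or below.

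The members fell into several kinds by this change, with a line drawn at 0.5 in either direction. The most frequent, with 75 of the 214 members, was a higher level in rehydrated WT and a change within 0.5 in atg5, at medians of 1.01 and 0.134. Next came 68 members (31.8%) that were higher in both genotypes but by less in atg5, at medians of 2.01 and 1.14. In 45 members (21.0%) WT stayed within 0.5 and atg5 was lower, at medians of 0.102 and -0.93. In 12 members both were lower, in 10 both were within 0.5, and in 4 WT was higher and atg5 lower. By its limits on the ratio in Dehydration and Rehydration, the rule places the WT change above the atg5 change in every member. Which kinds can occur, and the lean towards a higher level in WT, thus follow in large part from the selection. The shares of all detected probes in the same kinds were not counted, so these counts have no background to be compared with.

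**Figure D3:**
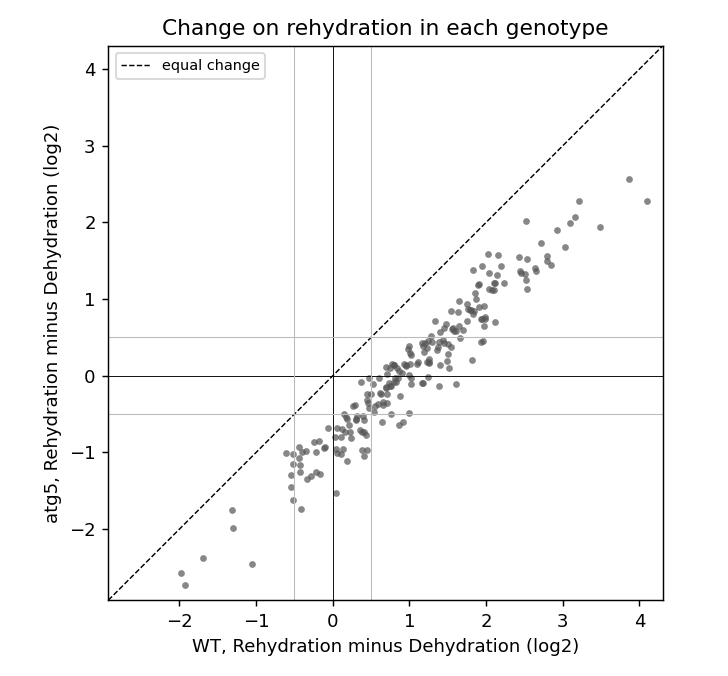
Change of level from Dehydration to Rehydration in WT (x axis) and in atg5 (y axis), both log2, with 1 point per member probe, grey lines at 0.5 in either direction and a dashed line at equal change. The rule places the members below the dashed line, and the points spread from members higher in both genotypes to members lower in both.

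Among the members higher in WT with little change in atg5 were 5 of the 12 loci with the lowest ratios. Pp1s201_82V6.1 had ratios of -2.19 and -1.65 in Rehydration, replicate 1 first here and below, and 0.24 and 0.22 in Hydration. It was somewhat lower in atg5 before rehydration too, at -0.37 and -0.23 on ABA and -0.42 and -0.34 in Dehydration. The other measured probes of its locus, Pp1s201_82V6.2 and Pp1s201_82V6.3, were not members, with mean ratios of -0.45 and -0.50 on ABA. The latter was also at -0.41 in Dehydration. Its WT level was 0.0832 and 0.0342 in Dehydration and 2.39 and 1.64 in Rehydration. Its atg5 level was -0.40 and -0.36 in Dehydration and 0.179 and -0.0198 in Rehydration. Pp1s355_66V6.1 had ratios of -1.96 and -1.72, with WT at 3.71 and 2.16 and atg5 at 1.73 and 0.44. Both arrays gave nearly the same ratio although the levels of the arrays lay over 1 apart, so WT of replicate 2 was only a little above atg5 of replicate 1.

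Pp1s175_68V6.3 was at -1.98 and -2.02 in dried WT and at 0.18 and -0.33 in rehydrated WT, while atg5 went from -2.23 and -2.30 to -1.54 and -2.12. In relative level WT was 3.80-fold higher and atg5 1.35-fold higher, and the rehydrated WT level was close to that of Hydration (0.34 and 0.12). The pixel signal of this probe fell from 157 and 305 in dried WT to 68 and 93 in rehydrated WT. Pp1s3_473V6.1 was between -1.07 and -0.28 in every WT channel before rehydration and at 0.98 and 1.23 after it. In atg5 it was at -0.84 and -0.69 in Dehydration and -0.58 and -0.56 in Rehydration. The rehydrated WT values lay above all earlier WT values, whereas those of atg5 lay within the earlier atg5 range of -1.14 to -0.477. Pp1s130_71V6.1 was at 2.99 and 2.71 in rehydrated WT against 1.08 and 0.99 in dried WT, and at 1.27 and 1.24 against 1.07 and 1.02 in atg5. The pixel signal of Pp1s3_473V6.1 fell from 191.5 and 469 in dried WT to 61.5 and 99.5 in rehydrated WT. That of Pp1s130_71V6.1 fell from 1159 and 2358 to 315 and 713. With normexp and loess the Rehydration ratio was -0.68 for Pp1s175_68V6.3 and -0.74 for Pp1s3_473V6.1, which miss the limit of -0.8. For Pp1s130_71V6.1 it was -1.18.

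Of the members higher in both genotypes, Pp1s171_48V6.1 had the lowest ratio of all, with -1.60 and -2.37 in Rehydration. Its Hydration level was 1.65 and 1.48 in the WT channels, with atg5 at 1.88 and 1.57. In Dehydration WT stood at -2.34 and -2.81 and atg5 at -3.06 and -2.98. After rehydration WT stood at 0.83 and 0.99 and atg5 at -0.78 and -1.38. Relative to the other detected probes, both genotypes had moved back towards the level before drying, WT by 11.2-fold and atg5 by 3.83-fold. These spots were dim in both states. Their pixel signal above local background went from 91 and 114.5 to 79 and 135 in WT. In atg5 it went from 85.5 and 62.5 to 77 and 43. Pp1s201_96V6.1 was at -0.88 and -1.25 in dried WT and 2.33 and 3.74 in rehydrated WT, 17.2-fold higher. In atg5 it went from -0.91 and -0.86 to 1.03 and 1.75, 4.84-fold higher. Its pixel signal, however, fell from 145.5 and 309.5 to 105 and 265 in WT. In atg5 that signal fell from 263 and 167.5 to 112.5 and 96. In the mean level over both genotypes, described below, Pp1s171_48V6.1 rose 3.30-fold and Pp1s201_96V6.1 3.31-fold from Dehydration to Rehydration. Pp1s4_1V6.1 had no loss of level on drying in WT. It was between -3.55 and -2.84 in WT in the first 3 treatments, at -0.50 and -0.99 in rehydrated WT and at -2.66 and -2.52 in rehydrated atg5. This probe was dim, with pixel signals of 59.5 and 73.5 in rehydrated WT and 39 and 39.5 in rehydrated atg5. In dried WT they were 96.5 and 175. With normexp and loess its Rehydration ratio was -0.68, which misses the limit of -0.8.

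Members lower in atg5 with little change in WT included all 4 probes of Pp1s129_118. Pp1s129_118V6.1 had Rehydration ratios of -1.70 and -1.99. Its atg5 level was 1.95 and 2.04 in Dehydration and -0.34 and 1.27 in Rehydration, and its WT level was 2.22 and 2.32 in Dehydration and 1.37 and 3.26 in Rehydration. The arrays disagreed on the level by nearly as much as the genotypes differed, so the WT value of replicate 1 and the atg5 value of replicate 2 lay side by side. Pp1s177_13V6.1, one of the brightest members, was steadier. It was at 6.22 and 6.34 in dried WT, 6.77 and 6.62 in rehydrated WT, 5.93 and 6.0 in dried atg5 and 4.88 and 4.96 in rehydrated atg5. In relative level WT was 1.33-fold higher after rehydration and atg5 was lower, at 0.483 of its dried level. The pixel signal of this probe fell from 35629 and 105042 to 3136 and 7399 in WT. In atg5 it fell from 62994 and 25477 to 4164 and 2131.5. In the mean level over both genotypes, described below, Pp1s177_13V6.1 fell 1.57-fold from Dehydration to Rehydration.

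Among the 4 members with opposite changes, Pp1s286_20V6.1 was at -0.89 and -1.05 in dried WT and -0.222 and 0.0104 in rehydrated WT. In atg5 it was at -1.20 and -1.06 in Dehydration and -1.97 and -1.58 in Rehydration. The rule selects for genotypes that are close together in the dried state and apart after rehydration. Pp1s651_2V6.2 also had opposite changes, with ratios of -2.11 and -1.25. It carried an outlier mark on all 8 arrays, however, and the other measured probes of its locus, Pp1s651_2V6.1 and Pp1s651_2V6.3, were lower in atg5 in Hydration too (-1.06 and -1.10).

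**Figure D4:**
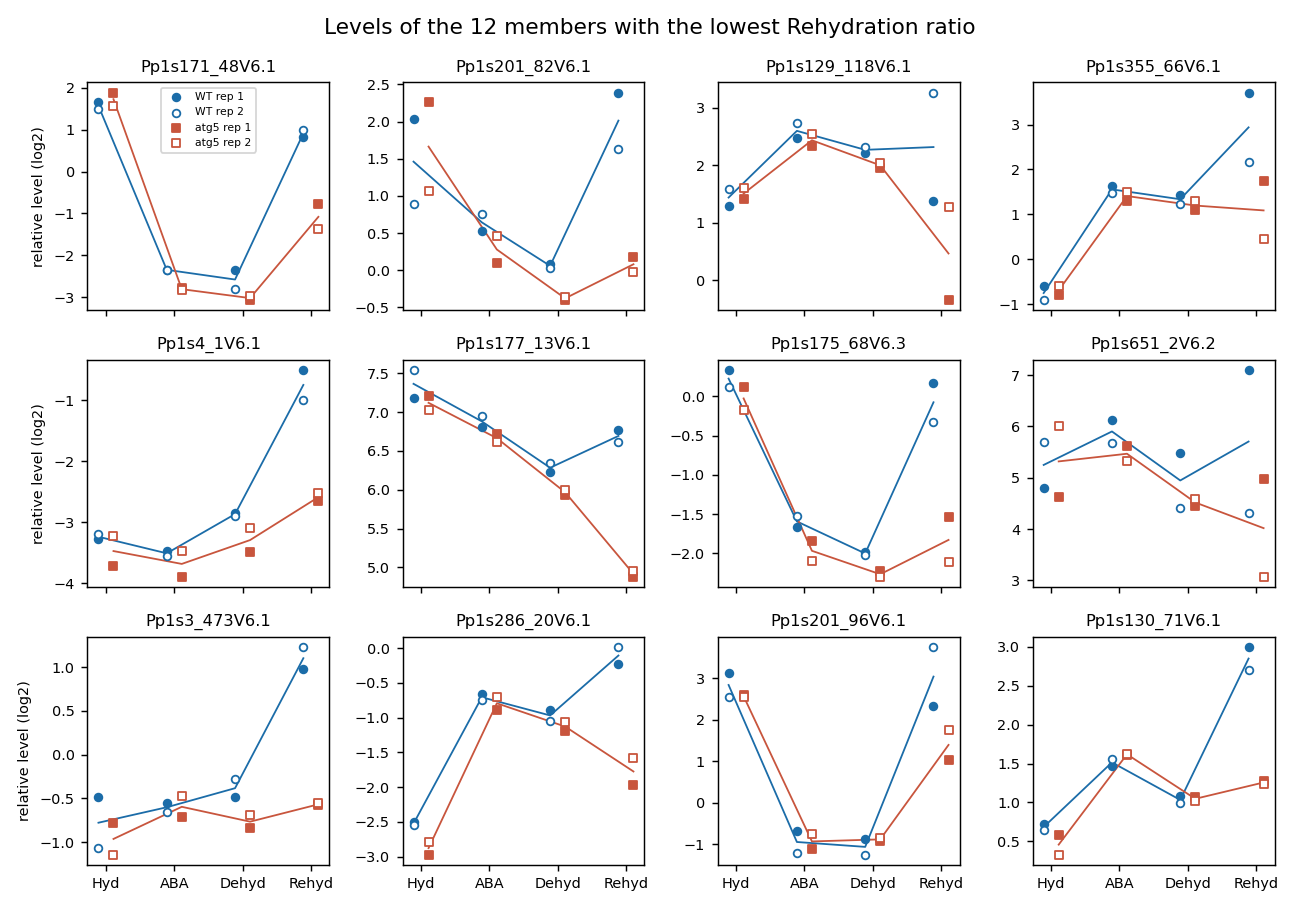
Relative level (log2, y axis) in the 4 treatments of the 12 loci with the lowest Rehydration ratio, in WT (circles) and atg5 (squares), with filled symbols for replicate 1, open symbols for replicate 2 and lines through the means. The rule places the genotype means closer together in the first 3 treatments than in Rehydration.

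Several loci were represented by more than 1 member probe. This was so for 17 loci with 48 members, and such probes may share sequence, so they are not independent. The 4 probes of Pp1s129_118 had ratios of -1.84 to -1.45, the 4 member probes of Pp1s43_118 of -1.45 to -1.26, and the member probes of Pp1s175_68 of -1.75 and -1.60. Those of Pp1s36_16 were at -1.38 and -1.34, whereas those of Pp1s159_32 were further apart at -1.37 and -0.83. A further 39 probes of member loci were well above background in all channels without being members. Their Rehydration ratios ran from -1.79 to -0.28 with a median of -0.79. Of these, 19 were at or under -0.8 and were left out for their ratio in another treatment, 17 were between -0.8 and -0.4, and 0 were above 0. All come from the same arrays as the members.

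The mean level over both genotypes is a different quantity from the ratio, since it averages the log2 signals of both channels in place of taking their difference. It uses the same Rehydration channels as the rule, however, and WT spread more widely than atg5 there. The 2 comparisons with Rehydration are therefore not independent of the selection, and their counts and p-values for the members support nothing about the set. It was compared between treatments with limma over all kept probes, after normexp, loess and quantile normalization of the array means (n = 2 arrays per treatment, threshold at an adjusted p of 0.05). Comparisons that share a treatment share its arrays. Whether the labelled biological replicates came from separate cultures is not stated further, so the p-values measure the spread between these arrays.

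On abscisic acid more members were lower than higher, as were more detected probes. Of 211 tested, 52 were lower and 22 higher than in Hydration, with a median log2 difference of -0.21. Among all 19696 tested probes 11.6% were lower and 8.72% higher, and among detected probes (those well above background in all channels) 18.1% and 14%, with a median of -0.0573. The members' shares were 24.6% and 10.4%. Pp1s201_96V6.1 fell 8.15-fold (log2 difference -3.03 ± 0.175 SE, adjusted p = 0.000301) and Pp1s175_19V6.1 fell 7.81-fold (-2.97 ± 0.0941, adjusted p = 5.3e-05). Pp1s90_78V6.1 rose 4.45-fold (2.15 ± 0.108, adjusted p = 0.000202) and Pp1s233_4V6.1 rose 4.42-fold (2.14 ± 0.163, adjusted p = 0.000778). With processed signals scaled to the 75th percentile 42 members were lower and 29 higher, while 10.2% of detected probes were lower and 16.4% higher.

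In the dried state, too, more members were lower than higher, as were more detected probes. Neither held under spike-in scaling, and with processed signals only the members kept this balance. Of 211 tested members, 52 were lower and 27 higher than in Hydration, which is 24.6% and 12.8%, with a median of -0.19. The background was 12.9% lower and 10.8% higher among all tested probes, and 20.2% and 16.8% among detected ones. Pp1s409_2V6.1 fell 10.1-fold (-3.34 ± 0.452, adjusted p = 0.00503). Its rehydrated WT level was -0.435 and 1.97, so the Rehydration arrays differed by over 2 for this probe. Pp1s201_96V6.1 fell 8.81-fold (-3.14 ± 0.175, adjusted p = 0.000237). Pp1s233_4V6.1 rose 4.87-fold (2.28 ± 0.163, adjusted p = 0.000567) and Pp1s90_78V6.1 rose 4.75-fold (2.25 ± 0.108, adjusted p = 0.000147). Without Dehydration replicate 1 and 2 the members' median was -0.158 and -0.156, and that of detected probes -0.0466 and -0.0294. Scaled to the spike-in controls, 36 members were higher and 21 lower, with 23.4% of detected probes higher and 4.41% lower. The members' median was then 0.31 and that of detected probes 0.50. With processed signals scaled to the 75th percentile 42 members were lower and 31 higher, with a median of -0.12. Of the detected probes, 750 were then lower and 941 higher, with a median of 0.0726.

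From the dried to the rehydrated state more members were called higher than lower relative to the other probes. Of 212 tested, 98 were higher (46.2%) and 11 lower (5.19%), with a median log2 difference of 0.57. Among all 19685 tested probes 12.5% were higher and 15.4% lower, and among detected probes 27.3% and 11.2%, with a median of 0.20. On slide 1 alone the members' median was 0.50 and on slide 2 alone 0.69. Pp1s158_40V6.1 rose 8.42-fold (3.07 ± 0.756, adjusted p = 0.0336) and Pp1s85_82V6.1 rose 5.22-fold (2.38 ± 0.451, adjusted p = 0.0151). For both, Dehydration replicate 1 was far below replicate 2, with WT levels of -2.59 against 1.04 for Pp1s158_40V6.1 and -2.50 against -0.22 for Pp1s85_82V6.1. The slide 1 and slide 2 differences were 4.33 and 1.81 for the former and 3.27 and 1.5 for the latter. The call of Pp1s158_40V6.1 was lost without either Hydration, ABA or Rehydration array (adjusted p of 0.0637 to 0.0863, and 0.00365 to 0.821 over all alternatives). That of Pp1s85_82V6.1 was lost without Rehydration replicate 1 (adjusted p of 0.0501), with processed signals (0.0559) and under spike-in scaling, where its sign turned (0.749, and 0.00488 to 0.749 over all alternatives).

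Falls on rehydration were few. Pp1s163_36V6.1 fell 4.55-fold (-2.18 ± 0.264, adjusted p = 0.00387), from WT levels of 2.36 and 2.44 to 1.16 and 0.25 and from atg5 levels of 1.95 and 2.22 to 0.27 and -0.85. Pp1s321_30V6.1 fell 2.88-fold (-1.52 ± 0.301, adjusted p = 0.0172), and its adjusted p was 0.0861 without Dehydration replicate 1 and 0.0565 without Dehydration replicate 2, in a range of 1.05e-05 to 0.0861 over all alternatives. The members' median difference was 0.557 and 0.549 without Dehydration replicate 1 and 2, and 0.686 and 0.536 without Rehydration replicate 1 and 2. For detected probes these medians were 0.195, 0.178, 0.204 and 0.23. With processed signals 66 members were higher and 17 lower, while 14.3% of detected probes were higher and 16.2% lower, with a median of -0.0483. Scaled to the spike-in controls, nearly every probe was lower in Rehydration, with a median of -2.30 over detected probes and -1.91 over the members, of which 0 were called higher and 191 lower, against 0.165% and 94.5% of detected probes. The rises given here are therefore relative to the other transcripts on the arrays, and that scaling turns their direction.

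Against the well-watered state, 85 of 210 tested members were higher after rehydration (40.5%) and 32 lower (15.2%), with a median of 0.38. The background was 14.5% higher and 19.8% lower among all 19712 tested probes and 29.2% and 16.5% among detected ones, whose median was 0.19. Pp1s90_78V6.1 was 5.96-fold above Hydration (2.58 ± 0.108, adjusted p = 0.000135), with rehydrated WT at 1.30 and 1.33 and atg5 at -0.00852 and 0.0426. In the dried state it had stood at 0.783 and 1.03 in WT and 0.624 and 0.878 in atg5. After rehydration WT was thus above its dried values and atg5 below them. Under spike-in scaling its adjusted p against Hydration was 0.202, in a range of 7.59e-05 to 0.202 over all alternatives. Pp1s355_66V6.1 was 4.07-fold higher (2.02 ± 0.546, adjusted p = 0.0372), with 2.93 on slide 1 and 1.12 on slide 2. This call was lost when either Hydration, ABA or Dehydration array was left out (adjusted p of 0.0663 to 0.129, and 0.0003 to 0.934 over all alternatives).

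Pp1s52_157V6.1 was 7.40-fold below Hydration (-2.89 ± 0.0769, adjusted p = 3.53e-05). It was already 5.95-fold lower in the dried state (-2.57 ± 0.0769, adjusted p = 3.66e-05), and stood at 0.32 and 0.38 in rehydrated WT and -0.40 and -0.59 in rehydrated atg5. Pp1s321_30V6.1 was 7.09-fold below Hydration (-2.83 ± 0.301, adjusted p = 0.00187). Under spike-in scaling 0 of the 210 tested members were called higher than in Hydration and 171 lower, near the 0.715% and 85.4% of detected probes.

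The set raised in atg5 only after rehydration, 200 probes chosen by the mirrored limits, was measured on the same arrays. Its mean level from Dehydration to Rehydration was called higher at 23 of 199 tested probes and lower at 48, with a median of -0.16, against 98 higher and 11 lower among the members. Its median change by genotype was -1.08 in WT and 0.018 in atg5, where the members had 1.00 and 0.11. Both sets were chosen on the Rehydration channels, in which WT spread more widely over all detected probes. The difference between the sets was not tested.

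**Figure D5:**
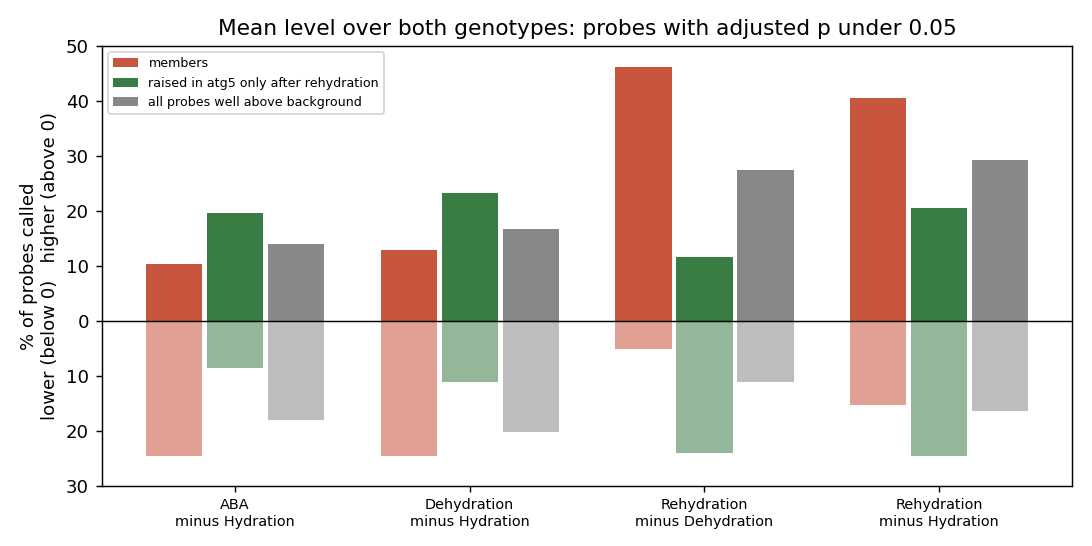
Percent of probes called higher (above 0) and lower (below 0, paler) in the mean level over both genotypes, for 4 comparisons of treatments, in the 214 members, the 200 probes raised in atg5 only after rehydration and the 5475 detected probes. Calls are relative to the other probes on the arrays. For the members the balance turns under spike-in scaling in all comparisons but ABA minus Hydration. The members stand at 46.2% higher and 5.19% lower from Dehydration to Rehydration, against 27.3% and 11.2% of detected probes. The members and the raised probes were chosen on the Rehydration channels. Their shares in the comparisons with Rehydration therefore support nothing about either set.

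The brightest members by mean WT level were Pp1s177_13V6.1, Pp1s12_390V6.1 and Pp1s651_2V6.2. Pp1s12_390V6.1 had Rehydration ratios of -0.62 and -1.08. Its WT level was 6.98 and 4.75 in Hydration and 3.29 and 6.92 on ABA, so its replicates disagreed, and it carried an outlier mark on 2 arrays. In all, 10 members had a marked spot on at least 1 array.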

How the data were processed

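The authors deposited 1 scanner file per array, with spot intensity on a linear scale and marks for background and outliers, made per the file headers with Agilent Feature Extraction 9.5.3.1 (9.1 per the submitters' processing notes). The background and dye steps behind the processed signals are not given in the sources used here. Of 38316 gene spots, 19.3 to 53.5% were well above background per channel, lowest on the Rehydration arrays, and 0 were saturated. The number of arrays limits the precision.

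Members follow a fixed rule on processed signals, with spots of a probe averaged. Members and lists were chosen with earlier results of these data known. For the tests, median pixel signals were corrected by normexp (offset 50), loess and Aquantile normalized in limma 3.58.1, outlier-marked spots were left out, and probes were kept where the background mark was met in 1 genotype and treatment on each of its arrays. Treatment means of the mean log2 level were fitted over all 8 arrays with Benjamini-Hochberg adjustment, checked on simulated data. Slides coincide with replicate numbers. Deviations of same-numbered arrays correlated at 0.0227 to 0.0855, so the numbers were not taken to pair the arrays.

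Named members are, by 1 probe per locus, the 12 lowest Rehydration ratios, the 3 brightest in WT, the 2 largest called rises and falls per comparison, loci with several member probes (at most 5) and the 2 probes on either side of the limit. Examples outside this rule are other probes of those loci.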

Additional observations from a re-analysis of the deposited data

How the results depend on the processing

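With the replicate number as a block, 73 members were called in ABA minus Hydration (74 without), 82 in Dehydration minus Hydration (79), 109 in Rehydration minus Dehydration (109) and 110 in Rehydration minus Hydration (117). The numbers share a slide and a dye orientation, and this changed no call of a named member. In fits that leave out single arrays, a lone array is assumed to vary like the others. In the same order, the members' median log2 difference then ran from -0.206 to -0.158, -0.196 to -0.156, 0.536 to 0.686 and 0.334 to 0.429. For detected probes it ran from -0.0825 to -0.0384, -0.0758 to -0.0294, 0.178 to 0.23 and 0.179 to 0.222. At least 2-fold in the main fit were 38, 45, 43 and 55 members. The shares of detected probes at that limit were not counted. Spike-in scaling reversed the balance in the last 3 comparisons, with 57, 191 and 171 members called. It also turned Pp1s85_82V6.1 to -0.18 in Rehydration minus Dehydration and Pp1s355_66V6.1 to -0.0372 in Rehydration minus Hydration.

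The rule itself gave 77 probes with normexp and loess (46 of them members), 121 with a Rehydration limit of -1 and 142 with a limit of 0.3 elsewhere. From replicate 2 alone it gave 337 probes (137 shared) and from replicate 1 alone 234 (115 shared), which leaves 1 array per treatment. The members' median Rehydration ratio was -0.61 with normexp and loess, -0.89 with an offset of 1, and -1.21 to -0.95 on single replicates, centred on the probes detected on that replicate's arrays alone. An offset draws ratios of dim spots towards 0 by construction, and member spots were dimmest on the Rehydration arrays.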
